A study of Oryctolagus cuniculus with 20 samples.

Results

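The connexin genes GJA1, GJA5 and GJA10 were followed in condylar cartilage of rabbits, the tissue that covers the head of the jaw joint. These are 3 of 855 genes that could be named on the array. They were selected by name, and they were selected on earlier results of these same arrays, namely the processed signals of their probes in the 5 groups. Their levels and differences are therefore given as a description, with no test. GJA1 had 2 probes and GJA5 had 1. No probe carried the symbol GJA10. It was matched through 4 probes described in the files as connexin 57, the name of the protein encoded by Gja10 in the mouse, and through 2 further probes of the same Ensembl transcript, so 6 probes stand for it.

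The samples were total RNA of condylar cartilage from the temporomandibular joint (TMJ) of male rabbits aged 6 months, each hybridised to a 1-colour Agilent array labelled with Cy3. Per the labels, 4 control rabbits had no treatment, and 16 rabbits had internal derangement (ID) of the left joint and were taken 1, 2, 4 or 8 weeks later, with 4 arrays at each time. The labels give no sham operation, and all 4 times are set against the same control arrays. The operation itself and the derangement it produced cannot be told apart. The surgical method and the sampling time of the controls are not given in the sources used here.

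Connexins are membrane proteins that assemble into hexameric hemichannels. Hemichannels of adjoining cells dock to form gap junctions, which pass ions, second messengers and small metabolites from cell to cell, and undocked hemichannels can release ATP. GJA1 encodes connexin 43, the main connexin of chondrocytes, osteoblasts and synovial cells. GJA5 encodes connexin 40, known from arterial endothelium and from the atrial and conducting myocardium. GJA10 encodes connexin 57 in the mouse, where it is known from the horizontal cells of the retina.

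The probe sequences are shown because the results below turn on which stretch of each transcript was read. Each probe is 60 bases long and is printed 5′ to 3′ as the scanner files give it, with its start within the transcript in the files' numbering. The capitals in the connexin 57 probes mark the 30 bases that A_04_P016227 and A_04_P016226 share.
GJA1, A_04_P010797, start 852: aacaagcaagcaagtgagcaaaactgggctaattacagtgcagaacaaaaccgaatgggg
GJA1, A_04_P010796, start 945: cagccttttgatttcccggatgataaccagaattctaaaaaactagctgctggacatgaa
GJA5, A_04_P012481, start 390: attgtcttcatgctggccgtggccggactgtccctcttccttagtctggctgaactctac
GJA10, A_04_P016229, start 436: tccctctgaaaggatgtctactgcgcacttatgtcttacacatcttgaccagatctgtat
GJA10, A_04_P016228, start 466: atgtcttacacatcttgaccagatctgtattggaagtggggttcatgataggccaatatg
GJA10, A_04_P016227, start 496: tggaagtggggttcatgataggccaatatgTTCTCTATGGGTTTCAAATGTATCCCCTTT
GJA10, A_04_P016226, start 526: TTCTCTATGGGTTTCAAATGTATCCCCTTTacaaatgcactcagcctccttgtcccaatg
The first 4 connexin 57 probes step along their transcript, and each shares 30 bases with the next, so they are not independent readings. The other pair, A_04_P004237 and A_04_P004236, starts at 1413 and 1533. The GC content was 45.0% and 40.0% for the GJA1 probes, 55% for the GJA5 probe and 35.0% to 45.0% for the connexin 57 probes, against a median of 43.3% over all probes. No member probe shared more than 14 bases in a row with a probe of another transcript on the same strand. Genome positions are not given, since the files name no build. In the RefSeq gene table of assembly mOryCun1.1, GJA10 lies between BACH2 and CASP8AP2.

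Each group lay on a slide of its own, and the slides were scanned on 2 days. The control and 2-week arrays share scan day 1 (8 arrays), and the 1-, 4- and 8-week arrays share scan day 2 (12 arrays). Control can be compared with 2 weeks, and 1, 4 and 8 weeks with each other, within a scan day. In every other comparison the scan day cannot be told apart from the group, and the slide cannot in any. The share of spots well above background, the scanner software's test of a spot against its background, ran from 52.8% to 58.9% on day 1 and from 49.1% to 66.4% on day 2. The lowest share, and the lowest 75th percentile of signal at 174.1, belonged to 1-week replicate 4. The cartilage label was checked on marker genes. COL2A1, ACAN and CNMD, genes of hyaline cartilage, were well above background on all 20 arrays. SOX9, the chondrocyte transcription factor, was so on 4 of 4 arrays at 1 week, on 2 of 4 at 4 and 8 weeks and on none of control and 2 weeks.

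GJA5 was detected in every rabbit and lay higher in all 4 operated groups than in the untreated group. Its probe, A_04_P012481, was well above background on 20 of 20 arrays. The processed signal, the spot's brightness after the scanner software's background correction, was 103.4, 113.5, 81.0 and 96.2 on the control arrays. At 1 week it was 274.3, 141.1, 331.4 and 183.3, and at 2 weeks 179.9, 180.1, 181.8 and 172.4. Every operated array at these times was thus brighter than the brightest control array. At 4 weeks the signal was 275.1, 249.5, 419.7 and 368.1, and at 8 weeks 245.2, 283.1, 280.1 and 314.5. These signals are not scaled for the overall brightness of an array.

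On the scaled level, which is the log2 signal relative to the array's 75th percentile, control GJA5 stood at -1.94 ± 0.21 (SD, n = 4). The level was -0.49 ± 0.39 at 1 week, -1.03 ± 0.25 at 2 weeks, -0.64 ± 0.16 at 4 weeks and -0.65 ± 0.12 at 8 weeks (SD, n = 4 each). In descending order the groups were 1, 4, 8 and 2 weeks and then control. The arrays of 1, 4 and 8 weeks overlapped, with steps of 0.15 and 0.01 that were smaller than the spread within groups of 0.30 and 0.14. The 2-week arrays, at -1.39 to -0.82, lay just under the 8-week arrays, at -0.81 to -0.52, and overlapped the 4-week arrays, which reached down to -0.83. No operated array overlapped the control range of -2.23 to -1.76.

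**Figure D1:**
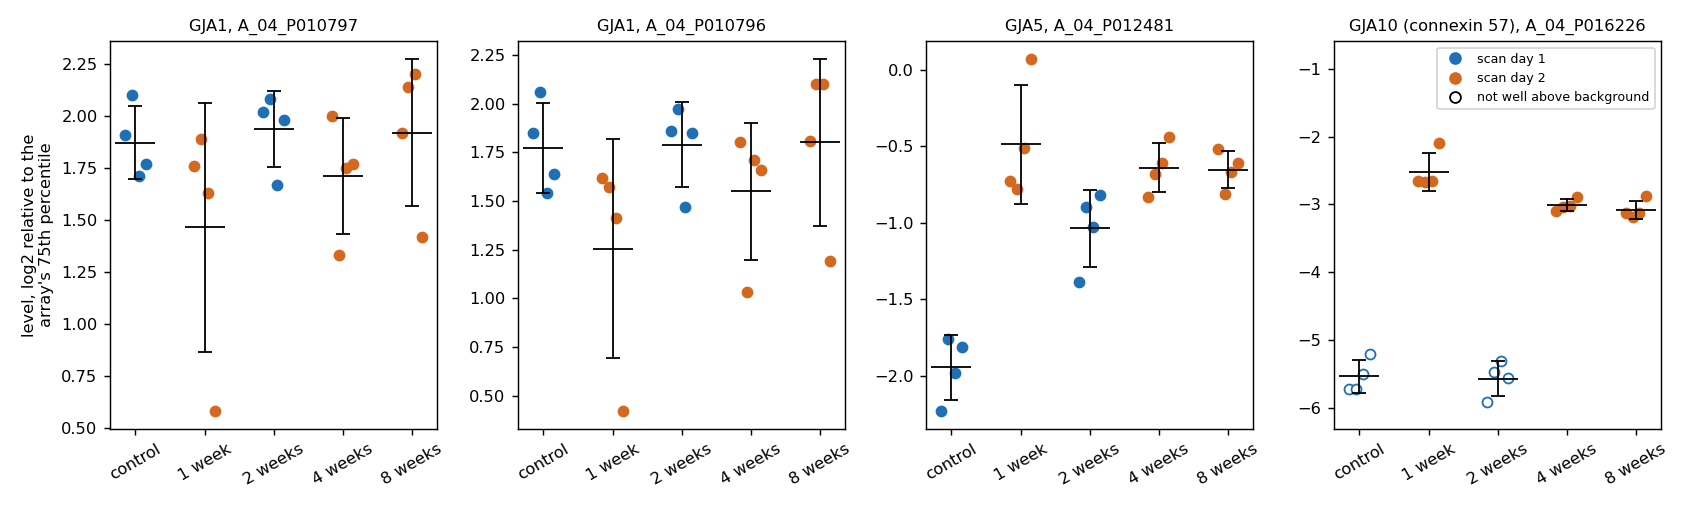
Level of the 4 member probes that passed the filter on dim probes, in log2 units relative to each array's 75th percentile, for 5 groups of 4 arrays; points are arrays coloured by scan day, open points are not well above background, and bars give the mean ± SD. GJA5 lies higher in every operated group than in control, GJA10 is above background only on the 12 arrays of scan day 2, and GJA1 overlaps between all groups.

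Against control, GJA5 differed by 1.46 ± 0.17 log2 units at 1 week (SE of the limma fit, 2.75-fold), by 0.91 ± 0.17 at 2 weeks (1.88-fold), by 1.305 ± 0.17 at 4 weeks (2.47-fold) and by 1.29 ± 0.17 at 8 weeks (2.45-fold). The 2-week value is the one that lies within a scan day. The kept probes of the whole array had a 5th to 95th percentile range of -0.54 to 0.55 in that comparison, and of -0.79 to 1.22 at 1 week, -0.63 to 1.11 at 4 weeks and -0.62 to 1.00 at 8 weeks. GJA5 lay above the 95th percentile of the kept probes at each time. It was selected with these contrasts known, so nothing is read from that place. Without 1-week replicate 4, which had the highest scaled GJA5 level of 0.07, the 1-week difference was 1.27. With normexp background correction, which models the raw spot and local background signals and adds an offset of 50, the 4 differences were 0.99, 0.61, 0.83 and 0.86. They kept their direction and were lower at each of the 4 times.

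Among operated groups GJA5 was lower at 2 weeks than at 1 week by 0.55 ± 0.17 log2 units (the difference was -0.55), and higher at 4 and 8 weeks than at 2 weeks by 0.395 ± 0.17 and 0.385 ± 0.17 (SE). These 3 comparisons run across the scan days. Within scan day 2, GJA5 at 4 and 8 weeks differed from 1 week by -0.15 and -0.16 and from each other by -0.01 (SE 0.17). Without 1-week replicate 4 the first 2 of these turned to 0.03 and 0.02. The 1-, 4- and 8-week means thus lay within 1 SE of each other, and the 2-week group, which lay lower, was scanned on the other day. RNA was taken from whole tissue, so more cells carrying a transcript and more transcript per cell cannot be told apart here or for the other members.

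For GJA10, 1 of 6 probes gave a signal well above background in any whole group, and it did so on the arrays of scan day 2 alone. That probe, A_04_P016226, read 72.6, 38.1, 74.7 and 40.5 at 1 week, 57, 48.3, 78.9 and 67.4 at 4 weeks and 40.3, 54.9, 50.9 and 65.1 at 8 weeks. It read 9.3, 7.3, 7.1 and 9.2 on control arrays and 7.9, 7.6, 9.3 and 6.4 at 2 weeks. It was well above background on 12 of 12 arrays of scan day 2 and on 0 of 8 arrays of scan day 1. The on and off groups therefore coincide with the scan days, and derangement cannot be told apart from the scan day here.

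The mean level of A_04_P016226 was -2.52 ± 0.28 at 1 week, -3.01 ± 0.09 at 4 weeks and -3.08 ± 0.13 at 8 weeks (SD, n = 4 each). It was -5.53 ± 0.24 in control and -5.56 ± 0.25 at 2 weeks, both not well above background. In that order, 4 and 8 weeks overlapped, and so did control and 2 weeks, whereas 1 week lay above 4 weeks without overlap (-2.67 to -2.10 against -3.10 to -2.89). Since the control arrays were not well above background, the change is stated against a floor. The floor is the lowest level at which any probe counted as well above background on each control array. On the processed signal the probe was 2.46-fold above it at 1 week, 1.75-fold at 4 weeks and 1.67-fold at 8 weeks. Against the floors of the 2-week arrays the values were 2.40-fold, 1.71-fold and 1.63-fold. Leaving out each array in turn kept the values against control between 1.59-fold and 2.68-fold. These are not strict lower bounds. On 8-week replicate 3, A_04_P016227 stood at -4.14, above that array's floor of -4.289, and did not count as well above background. With normexp correction the differences from control were smaller, at 0.68, 0.19 and 0.25 log2 units.

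Within scan day 2, A_04_P016226 at 4 and 8 weeks lay below 1 week, with differences of -0.49 and -0.56 log2 units (SE 0.15), and 8 weeks differed from 4 weeks by -0.06. Without 1-week replicate 4, whose level of -2.10 was the highest, the first 2 of these were -0.36 and -0.42. That array's processed signal of 40.5 was among the lowest of its group, and its 75th percentile of 174.1 was the lowest of all arrays. Within scan day 1, 2 weeks and control differed by -0.035 ± 0.153 (SE), with both groups below background.

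**Figure D2:**
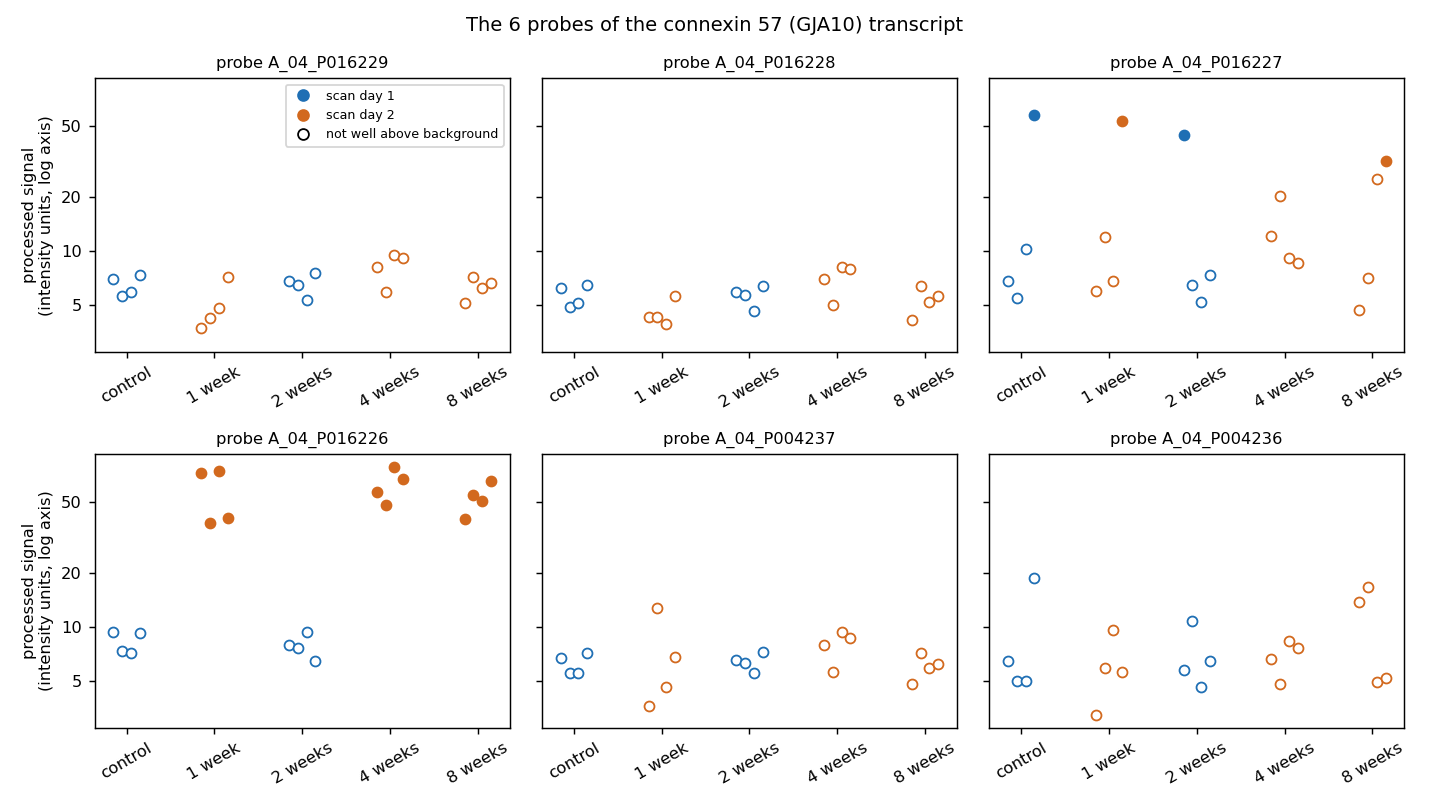
Processed signal, on a log axis in intensity units, of the 6 probes of the connexin 57 transcript on 20 arrays, coloured by scan day; filled points are well above background. A_04_P016226 is filled on the 12 arrays of scan day 2, A_04_P016227 on 4 single arrays, and the other 4 probes on none.

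The other 5 probes of the connexin 57 transcript did not show this pattern. A_04_P016229, A_04_P016228, A_04_P004237 and A_04_P004236 were well above background on 0 of 20 arrays, with signals of 3.2 to 18.8. A_04_P016227, which holds the capital stretch shown above together with the 30 bases before it, was well above background on 4 arrays, 1 each of control, 1, 2 and 8 weeks. On those it read 58.0, 53.6, 44.4 and 31.8, and on the rest 4.7 to 25.3. Its bright arrays were 2 on each scan day. The 2 probes that share 30 bases thus went apart on 10 of the 12 arrays of scan day 2, where A_04_P016226 was above background and A_04_P016227 was not.

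Before background correction the scan days lay closer together for A_04_P016226. The raw mean spot signal was 55.3 to 71.5 on the 8 arrays of scan day 1 and 79.0 to 139.2 on the 12 arrays of scan day 2, over a local background of 22 to 29 on both days. The processed signal of the same spots was 6.4 to 9.3 and 38.1 to 78.9. The raw ranges did not overlap, but the gap between them, from 71.5 to 79.0, was narrow. With normexp correction of the raw signals the mean levels were -2.24 in control, -1.56 at 1 week, -2.03 at 2 weeks, -2.05 at 4 weeks and -1.99 at 8 weeks. The fitted differences from control, 3.01, 2.51 and 2.45 with the processed signal, were then 0.68, 0.19 and 0.25 at 1, 4 and 8 weeks, and 4 weeks lay below 2 weeks, at -0.02 against 2.55. The size of the GJA10 difference thus depends on the background correction, and at 4 against 2 weeks its sign does too.

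**Figure D3:**
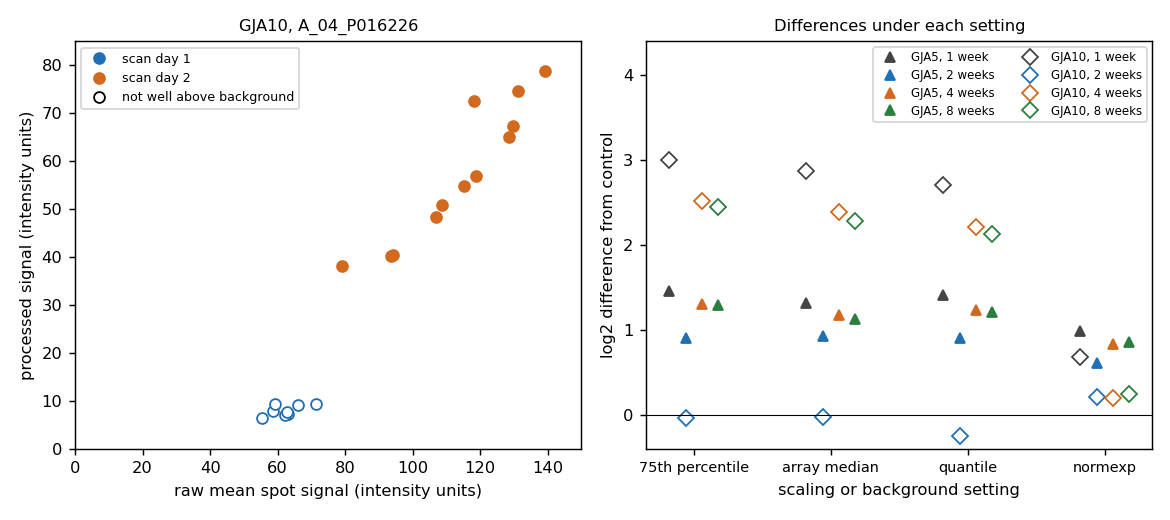
Left, processed signal against raw mean spot signal of GJA10 probe A_04_P016226 on 20 arrays, by scan day. Right, log2 differences from control of GJA5 (triangles) and GJA10 (open diamonds) under 4 settings; with normexp correction GJA10 falls from 3.01 to 0.68 at 1 week and GJA5 from 1.46 to 0.99.

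Over the whole array, 78 of 43603 probes (0.179%) had the same on and off pattern as A_04_P016226, well above background on all 12 arrays of scan day 2 and on none of the 8 of scan day 1. The reverse pattern, above background on all arrays of scan day 1 and on none of scan day 2, was held by 0 probes. For comparison, 44.2% of probes were well above background on all 20 arrays and 22.2% on none.

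GJA1, the connexin of chondrocytes and osteoblasts, was detected in every rabbit and overlapped between all 5 groups. Both probes were well above background on 20 of 20 arrays. The level of A_04_P010797 was 1.91, 2.10, 1.71 and 1.77 on control arrays, and 1.76, 1.89, 1.63 and 0.58 at 1 week. It was 2.02, 2.08, 1.67 and 1.98 at 2 weeks, 2.00, 1.33, 1.75 and 1.77 at 4 weeks and 1.92, 2.14, 2.20 and 1.42 at 8 weeks. A single array stood low, 1-week replicate 4, with a signal of 259.9 where the other 1-week arrays had 897.4 to 1549.0. The group means were 1.94 ± 0.19 at 2 weeks, 1.92 ± 0.36 at 8 weeks, 1.87 ± 0.18 in control, 1.71 ± 0.28 at 4 weeks and 1.47 ± 0.60 at 1 week (SD, n = 4 each). Each step in that order was smaller than the spread within groups.

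Against control, GJA1 differed by -0.41 at 1 week, 0.07 at 2 weeks, -0.16 at 4 weeks and 0.05 at 8 weeks (SE 0.24 each). Probe A_04_P010796, which reads a later stretch of the transcript, gave -0.52, 0.02, -0.22 and 0.03 (SE 0.26 each). Over 20 arrays the levels of the 2 probes correlated at r = 0.98, a description of arrays that share their RNA. Without 1-week replicate 4 the 1-week difference of A_04_P010797 was -0.11. For both probes the range of each operated group overlapped the control range. The sign of the small 2-week difference of A_04_P010797 turned with normexp correction, to -0.09.

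**Figure D4:**
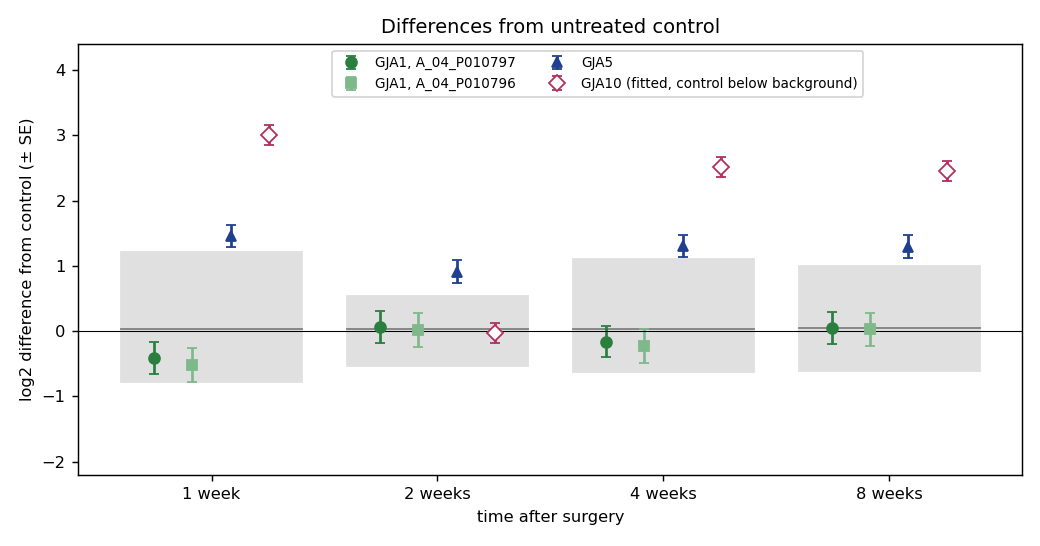
Log2 differences from control ± SE of the 4 kept member probes at 4 times; grey boxes span the 5th to 95th percentile of all kept probes and the grey line is their median. GJA5 lies between 0.91 and 1.46, GJA1 between -0.52 and 0.07, and the fitted GJA10 values, from 2.45 to 3.01 at 1, 4 and 8 weeks, rest on control arrays below background.

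Counts of called probes were set against the whole array. Kept probes had 3 or more arrays well above background in at least 1 group. A kept probe counted as called at an adjusted p under 0.05 in the limma fit of all 20 arrays with Benjamini-Hochberg adjustment over the 26905 kept probes. In either direction 13.9% of kept probes were called at 1 week, 0.457% at 2 weeks, 8.58% at 4 weeks and 12.8% at 8 weeks. Called higher were 9.75%, 0.245%, 6.43% and 8.56%. Of the 9 member probes 4 were kept, namely both of GJA1, the GJA5 probe and 1 of 6 for GJA10. The GJA5 probe was among those called higher at all 4 times, the kept GJA10 probe at 1, 4 and 8 weeks, and the 2 GJA1 probes at none. The 2-week GJA5 call, the one within a scan day, held in 5 of 9 other settings and in 15 of 20 fits without 1 array. It was lost with normexp, with no filter and in fits to the control and 2-week arrays alone. With normexp the GJA5 calls at 4 and 8 weeks and each GJA10 call were lost too. The members were selected on these contrasts, so nothing is read from their calls, their counts or how often a call held. The kept GJA10 probe passed the filter only through the 1-, 4- and 8-week groups, in which it was then called higher.

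Among all called probes, 70.3% were higher at 1 week, 75% at 4 weeks and 66.9% at 8 weeks. When arrays were centred on their median these shares were 49.5%, 53.2% and 39%, and with normexp 68.2%, 60.7% and 48.6%. The normexp shares rest on 44, 28 and 35 called probes, against 3734, 2308 and 3442 in the main fit. The centring moved the median difference of all kept probes from 0.03, 0.03 and 0.04 to -0.12, -0.10 and -0.12. GJA5 then differed from control by 1.32, 0.92, 1.17 and 1.13 at the 4 times, and GJA1 at 8 weeks changed from 0.05 to -0.12.

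The members were also set beside each other and beside 636 other named genes with a kept probe. Over 20 arrays the levels of GJA5 and GJA10 had r = 0.80, of GJA1 and GJA5 r = -0.42, and of GJA1 and GJA10 r = -0.42. These points share scan days and groups. Within scan day 2 (n = 12) the 3 values were 0.72, -0.80 and -0.77, and without 1-week replicate 4 (n = 11) they were 0.15, -0.36 and -0.39. The relations within that day thus rest in large part on a single array. Within scan day 1 (n = 8) they were 0.16, 0.22 and -0.65, with GJA10 below background throughout.

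The genes whose level was most like GJA1 over the 20 arrays were DCN, the small matrix proteoglycan decorin (r = 0.85), COL1A2, a chain of type I collagen (0.84), and PDGFD, a platelet-derived growth factor (0.84). Within scan day 1 these values were 0.53, 0.12 and -0.18, and within scan day 2 they were 0.86, 0.91 and 0.92. For GJA5 the most alike were TH, tyrosine hydroxylase (0.96), FMO2, a flavin monooxygenase (0.93), and CSN2, a milk casein (0.91). Within scan day 1 they had r of 0.93, 0.84 and 0.77, and within scan day 2 of 0.85, 0.77 and 0.68. TH was well above background on 0 of 8 arrays of scan day 1 and 11 of 12 of scan day 2, and FMO2 on 1 and 11. For GJA10 they were SLC12A3, the thiazide-sensitive sodium chloride cotransporter (0.97), NPPA, a natriuretic peptide (0.96), and SLC47A2, an organic cation exporter (0.95). Their r was 0.49, 0.77 and 0.39 within scan day 1, and 0.84, 0.66 and 0.88 within scan day 2. All of these last 3 genes were above background on 0 of 8 arrays of scan day 1, and on 12, 6 and 12 of the 12 of scan day 2. The correlations have no test and share depth, slide and scan day.

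The array named 2 other connexins, and neither was called against control by its probe of highest mean. GJB1 encodes connexin 32, known from liver and from myelinating Schwann cells, and GJC1 encodes connexin 45, known from the developing heart and vascular smooth muscle. Each has 5 probes whose starts lie 1 or 2 bases apart, so the 5 are close to repeats of each other. GJB1 was well above background on all 20 arrays. Its level, by A_04_P016233, was 3.91 ± 0.45 in control, 3.17 ± 0.52 at 1 week, 4.04 ± 0.44 at 2 weeks, 3.97 ± 0.19 at 4 weeks and 3.68 ± 0.16 at 8 weeks (SD, n = 4 each). The 1-week arrays, at 2.63 to 3.79, overlapped the control arrays at 3.54 to 4.55.

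GJB1 differed from control at 1 week by -0.74 ± 0.26 log2 units (SE, limma adjusted p = 0.0655). Its adjusted p ranged from 0.0150 to 0.445 over 28 alternatives and passed 0.05 in 4 of them, with array median centring (0.0150), with a replicate block (0.0469), without 1-week replicate 4 (0.0232) and without 2-week replicate 1 (0.0498). Of its 5 probes, A_04_P016235 was called lower at 1 week (-0.86 ± 0.24, limma adjusted p = 0.0261), and the 4 others had -0.67 to -0.75 with adjusted p of 0.0550 to 0.0829. Among operated groups GJB1 was higher at 2 weeks than at 1 week by 0.875 ± 0.26 (limma adjusted p = 0.0372), a comparison across scan days. At 2, 4 and 8 weeks the difference from control was 0.13, 0.06 and -0.23 (limma adjusted p = 0.975, 0.916 and 0.623). GJC1, by A_04_P012496, differed by 0.04, 0.08, -0.36 and 0.32 (SE 0.21) at 1, 2, 4 and 8 weeks, with limma adjusted p of 0.917, 0.988, 0.310 and 0.344. Its level was -2.10 ± 0.25 in control, -2.06 ± 0.44 at 1 week, -2.02 ± 0.18 at 2 weeks, -2.46 ± 0.28 at 4 weeks and -1.78 ± 0.30 at 8 weeks (SD, n = 4 each).

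**Figure D5:**
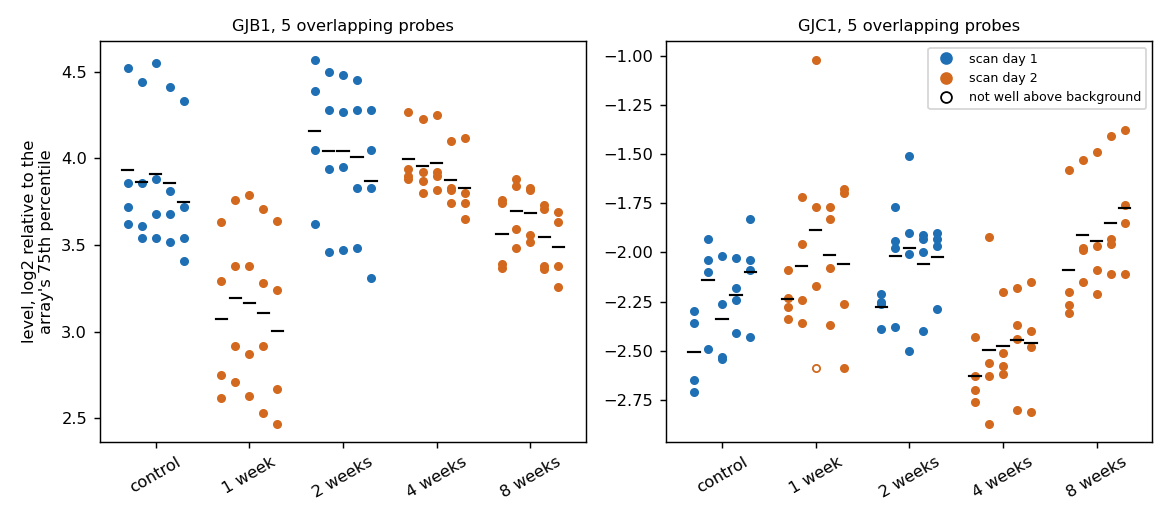
Level of the 5 overlapping probes each of GJB1 and GJC1 on 20 arrays, in log2 units relative to each array's 75th percentile, coloured by scan day; short bars are group means of a probe. GJB1 means lie lowest at 1 week, from 3.01 to 3.19, below the 4-week and control arrays, while single 1-week arrays overlap the control arrays. GJC1 means lie lowest at 4 weeks, and the 4-week arrays overlap the control arrays.

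Genes that work with connexins were counted from 4 lists, of other connexins and pannexins, connexin partners and regulators, other cell junction genes, and nucleotide and calcium signalling. Of their 88 genes 22 were named on the array and 15 were kept. Among the 9 kept partners and regulators, 1 was called higher at 1 week and 1 at 4 weeks, and of the 15 in all 0 were called at 2 weeks and 0 at 8 weeks by limma (1 and 1 at an unadjusted p under 0.05). Over all kept probes 9.75% were called higher at 1 week and 6.43% at 4 weeks, so 1 of 15 is near the share of the whole array. None was called lower at any of the 4 times. The median difference of the 15 was 0.05, -0.12, -0.19 and 0.00 at 1, 2, 4 and 8 weeks, against 0.03, 0.04, 0.03 and 0.04 over all kept probes. Of the 4 kept genes for nucleotide and calcium signalling and of the 2 other connexins, none was called at any time by the kept probe of highest mean. CLDN1, the sole gene of the cell junction list on the array, was not kept.

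The gene called was PRKG1, a cGMP-dependent protein kinase. Its level was -2.19 ± 0.21 in control, -1.40 ± 0.22 at 1 week, -2.40 ± 0.38 at 2 weeks, -1.11 ± 0.49 at 4 weeks and -1.74 ± 0.40 at 8 weeks (SD, n = 4 each). It rose by 0.80 ± 0.24 at 1 week (limma adjusted p = 0.0367) and by 1.08 ± 0.24 at 4 weeks (adjusted p = 0.00944), both across scan days, while the 2-week difference within scan day 1 was -0.20 (adjusted p = 0.936). The 1-week call held in 19 of 28 alternatives (limma adjusted p 0.0161 to 0.724). It was lost under each other scaling or background correction tried, with array median centring (0.0928), quantile normalization (0.0748) and normexp (0.724), and also with no filter (0.0569) and with a replicate block (0.0538). It was lost too without 1-week replicate 3 or 4 or control replicate 1 or 3, at 0.0747 to 0.0954. The 4-week call held in 27 of 28 (0.00141 to 0.641) and was lost with normexp correction.

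Other genes of the lists did not pass the test. CAV1, which encodes the caveolar protein caveolin 1, differed by -0.78 ± 0.29 at 1 week (limma adjusted p = 0.0827) and by -0.70 ± 0.29 at 4 weeks (0.148). Its 1-week difference passed with a replicate block (limma adjusted p = 0.0263) and without 1-week replicate 1 (0.0233). PRKCD, a protein kinase C, differed by -0.54 ± 0.24 at 1 week (limma adjusted p = 0.142), with 3 of its 5 probes of the opposite sign. DBN1, the actin-binding drebrin, differed by 0.23 ± 0.09 at 8 weeks (limma adjusted p = 0.0929). In the signalling list, the inositol trisphosphate receptor ITPR3 differed by 0.81 ± 0.31 at 1 week (limma adjusted p = 0.0947), and the ATP-gated channel P2RX4 by -0.23 ± 0.27 at 8 weeks (0.626). ATP2A2, the calcium pump of the endoplasmic reticulum, differed by 0.11 ± 0.11 at 2 weeks (limma adjusted p = 0.916). RYR1, the calcium release channel of skeletal muscle, differed by -1.38 ± 0.55 at 2 weeks (limma adjusted p = 0.504), from a control level spread over -1.79 to 1.95. The operated ranges of RYR1 overlapped that control range. The part of skeletal muscle RNA, whose markers are given below, in the RYR1 value was not tested.

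Markers of cells known to carry the members were set beside them. For GJA5, 2 of 6 endothelial markers were kept, KDR and SELE, while VWF was below background. Their summed linear level was 0.132 to 0.210 in control, 0.128 to 0.371 at 1 week, 0.221 to 0.311 at 2 weeks, 0.130 to 0.370 at 4 weeks and 0.161 to 0.273 at 8 weeks. KDR, a receptor for vascular endothelial growth factor, had levels of -3.48 ± 0.36 in control and -2.42 ± 0.31 at 2 weeks (SD, n = 4 each). It differed by 1.05 ± 0.31 there (limma adjusted p = 0.216) and by 0.44, 0.46 and 0.69 at 1, 4 and 8 weeks. SELE went the other way at 2 weeks, with -3.61 ± 0.40 in control and -4.14 ± 0.67 there (SD, n = 4 each). Its difference was -0.53 ± 0.56 (SE, limma adjusted p = 0.925), and 0.06, -0.003 and -0.25 at 1, 4 and 8 weeks. The 2-week sum lay above the control range through KDR alone, and at the other times the ranges overlapped. Smooth muscle genes ACTA2 and TAGLN, 2 of 5 kept with MYH11 below background, summed to 1.79 to 4.12 in control, 0.75 to 2.42 at 1 week, 1.72 to 4.38 at 2 weeks, 0.454 to 2.08 at 4 weeks and 1.68 to 3.58 at 8 weeks. TAGLN was called lower at 4 weeks, across scan days, with a difference of -1.65 log2 units (limma adjusted p = 0.0314). ACTA2 differed by -1.59 there (limma adjusted p = 0.0780). Neither was called at the other times. No red cell marker of the list was named on the array. In their summed level skeletal muscle genes ran the opposite way to GJA5, with every control array above every operated array. Taken singly, MYH2, MYH7 and TTN overlapped between control and operated arrays. The 7 kept markers of 7 summed to 3.83 to 359 in control, 0.632 to 2.21 at 1 week, 0.282 to 1.46 at 2 weeks, 0.285 to 0.399 at 4 weeks and 0.265 to 0.474 at 8 weeks. TNNC2, MYH1, MYH2, MYH7, ATP2A1 and NEB fell at all 4 times, with differences of -3.65 to -7.24 log2 units and limma adjusted p of 5.525e-05 to 0.0178, and TTN, which encodes titin, fell at 1 and 8 weeks. The parts of vessel and of muscle content in the GJA5 values were not tested.

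For GJA1, the 4 kept cartilage markers of 6 summed to 217 to 499 in control, 374 to 2600 at 1 week, 113 to 309 at 2 weeks, 479 to 1310 at 4 weeks and 87.5 to 658 at 8 weeks, mostly COL2A1. The 4 kept bone cell markers of 7 summed to 521 to 737 in control and 659 to 1090 at 1 week. At 2, 4 and 8 weeks the sums were 510 to 867, 585 to 808 and 727 to 1070. ACP5 was called higher at 1 and 8 weeks, by 0.78 and 0.93 log2 units (limma adjusted p = 0.0404 and 0.0175). CTSK lay lower at 1 week, at -0.71 (0.146). SOX9 was called higher at 1 week, by 1.63 (0.0192), from control arrays below background. These comparisons run across scan days. No other cartilage or bone cell marker was called, and none at 2 weeks. The macrophage markers CD14, MSR1 and TLR4, 3 of 4 kept, summed to 5.01 to 7.36 in control, 2.52 to 4.82 at 1 week, 2.57 to 5.90 at 2 weeks, 1.94 to 4.01 at 4 weeks and 2.53 to 5.04 at 8 weeks. They lay wholly below control at 1 and 4 weeks. At 8 weeks only the top of their range, 5.04, reached the control range, while mean GJA1 was 1.92 against 1.87 in control. The GJA1 means were lowest at 1 and 4 weeks, but GJA1 overlapped between all groups. Without 1-week replicate 4 its 1-week difference from control was -0.11. At 4 weeks CD14, MSR1 and TLR4 were lower than control, with differences of -1.29, -2.05 and -0.82 log2 units (limma adjusted p = 0.0133, 0.0354 and 0.0480). At 1 week TLR4 was lower, with a difference of -0.80 (0.0392). Both comparisons run across scan days. At 2 weeks, within scan day 1, the 3 differences were -0.59, -0.75 and -0.46 (limma adjusted p = 0.699, 0.858 and 0.717). Cartilage markers spread widely between arrays of a group, as at 1 week, where GJA1 also had its widest spread. The part of cartilage, bone or macrophage content in the GJA1 levels was not tested.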

How the data were processed

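The starting point was the processed intensity deposited for every spot on 20 arrays, on a linear scale. Agilent Feature Extraction 10.7.1.1 is named in the submitters' processing notes. Per the file headers it subtracted background and detrended each array, and low signals were set to a positive surrogate. Outlier spots (5 to 62 per array) were left out, and no spot was saturated. Array median, quantile and normexp settings, a looser and a stricter filter, the deposited value table (also intensity), leaving out each array, a replicate block, and fits to fewer arrays were the alternatives. Levels are log2 of the deposited processed signal relative to the 75th percentile of the array. Differences came from limma 3.58.1 under R 4.3.3, fitting 5 group means with lmFit and eBayes, with two-sided p-values adjusted by Benjamini-Hochberg over 26905 kept of 43603 probes. The script was tested on simulated data. With 4 arrays a group, precision is limited by their number.

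The members and the gene lists were chosen with earlier results of these data known. Probe names came from the scanner files, updated through the RefSeq gene table, for 2469 probes (5.66%). The remaining probes are unnamed here, so lists are partly covered. From each list up to 4 kept genes of lowest p over the 4 comparisons with control are named, each by its kept probe of highest mean. Likeness is Pearson's r with the 3 most similar named genes. Arrays were taken as separate animals, as the design text has 4 control and 16 operated rabbits. Replicate numbers of the 8-week group are uncertain: each of its 4 columns in the value table equalled another array of that group, and the other 16 arrays matched their own. Column medians of that table, linear and without centring, ran from 28.26 to 90.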

Additional observations from a re-analysis of the deposited data

Results flagged for a closer look

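In 70 sets of 4 arrays (the kept connexin probes in 5 groups) an array was singled out where its gap to the nearest other passed Dixon's critical value for the share of the range, which chance gives in about 1 of 20 sets. The GJA10 probe A_04_P016226 stood at -2.10 on 1-week replicate 4, where the other 3 arrays had -2.67 to -2.65. GJB1 probe A_04_P016235 stood at 4.27 on 4-week replicate 4, above 3.88 to 3.94 on the others. GJC1 probe A_04_P012500 stood at -1.58 on 8-week replicate 1, above -2.31 to -2.2 on the others. The cause of these 3 values was not tested.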

How the results depend on the processing

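Normexp correction moved the most values. The differences from control at 1, 2, 4 and 8 weeks were then 0.987, 0.612, 0.831 and 0.859 for GJA5 and 0.677, 0.214, 0.193 and 0.25 for GJA10, and GJA10 at 4 against 2 weeks turned to -0.021. Called probes fell to 44, 0, 28 and 35 (limma, 544 at an unadjusted p under 0.05 at 2 weeks) from 3734, 123, 2308 and 3442, and list genes called to 0 at 1 and 4 weeks (2 and 2 at an unadjusted p under 0.05). With quantile normalization GJA10 differed by 2.711, 2.216 and 2.127 at 1, 4 and 8 weeks, and 0 list genes were called at 1 week (6 unadjusted). With no filter 74 probes were called at 2 weeks and 0 list genes at 1 week (6 unadjusted). Fits to the groups compared alone called 1421 probes at 1 week and 0 at 2 weeks, where the fit to 1 scan day also called 0 (limma, 2257 unadjusted). The cause was not tested.

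Leaving out each array gave 2428 to 4296 called probes at 1 week, 31 to 203 at 2 weeks, 1314 to 3700 at 4 weeks and 2023 to 4713 at 8 weeks, and 0 to 2 list genes at 1 week. The lowest counts came without control replicate 1 at 1 and 2 weeks, 4-week replicate 2 at 4 weeks and control replicate 2 at 8 weeks. No member difference from control moved by more than the spread within groups in these fits. The numbers of the replicates do not pair the arrays: deviations of arrays with the same number correlated at -0.33 to 0.384 (median 0.008, 40 pairs). With a replicate block the called probes were 3565, 101, 2189 and 3323, and the GJA5 differences the same. The list genes called at 1 week were then 2, CAV1 and GJB1, and PRKG1 was no longer called (limma adjusted p = 0.0538). The 5 probes of GJA10 that were not kept give no alternative value. Dim probes, GJA10 above all, are limited by background.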
